A study of Mus musculus with 72 samples.

Results

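Immediate early genes and their close associates were followed in 4 tissues of an ageing mouse model fed coenzyme Q10. The group held 10 genes: the AP-1 subunits Fos, Fosb and Junb, the zinc finger factors Egr1 and Egr2, the orphan nuclear receptor Nr4a1, the synaptic effectors Arc and Homer1, and the Krüppel-like factors Klf2 and Klf4. They were chosen by name, and their probe sets were those that the platform annotation gives these symbols. That left 17 of the 45037 probe sets without controls, and 10 of the 18193 genes with a single symbol. Homer1 had 6 probe sets, and where a gene had several, the brightest over all 72 arrays stood for it unless another is named.

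The mice were female SAMP1, a strain prone to accelerated senescence, bought at 4 weeks of age and kept 3 to 6 per cage with their cage mates unchanged. Each received a control diet, a diet with oxidised coenzyme Q10 (Q10) or a diet with the reduced form, ubiquinol (QH2), at an intake of about 500 mg per kg body weight a day for either supplement. They were killed after 6 or 14 months of diet, an age of 7 or 15 months by the protocol, while the age label reads 6 or 14 months, and brain, liver, kidney and heart RNA was hybridised to Affymetrix arrays. Each of the 24 combinations of tissue, diet and duration had 3 arrays, and every group shared strain, sex and housing. No label says whether the 4 tissues came from the same mice, so no comparison treats them as paired, and every p-value measures the spread between these arrays. The time of day and the handling before death are not given in the labels.

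Immediate early genes are transcribed within minutes of a stimulus, from factors already present in the cell, and their RNA decays quickly. In neurons, calcium entry and kinase signals phosphorylate CREB at cyclic AMP response elements (CRE) and the partners of serum response factor (SRF) at CArG boxes, which turns on Fos, Egr and Nr4a genes and, with them, effectors such as Arc. The same genes answer growth factors, stress and tissue handling in other organs, and Klf2 and Klf4 are also set by blood flow in endothelium.

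Promoter sequences are shown for 3 members that varied together from brain to brain (Fos, Nr4a1 and Egr2) and for Homer1. The brightest Homer1 probe set did not vary with those 3 over the 18 brains. The sequences let a reader see where the same short element lies in each. Sequences are from RefSeq on GRCm38.p6, on the gene's strand, 5′ to 3′, ending at the base before the transcript start, with motif matches in capitals. Motifs were searched on both strands. They were the CRE core TGACG, which reads CGTCA where it lies on the other strand, and the full CRE, TGACGTCA, which would also count as a core. The AP-1 element was TGACTCA, the TATA motif was TATAAA, and the CArG box was searched by name.
Fos, chr12:85473640-85473889, plus strand: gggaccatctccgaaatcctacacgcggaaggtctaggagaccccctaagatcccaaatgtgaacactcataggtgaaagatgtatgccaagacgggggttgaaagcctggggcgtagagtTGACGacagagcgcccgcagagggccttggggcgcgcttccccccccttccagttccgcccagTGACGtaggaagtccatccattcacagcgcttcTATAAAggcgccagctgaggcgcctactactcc
Nr4a1, chr15:101266596-101266845, plus strand: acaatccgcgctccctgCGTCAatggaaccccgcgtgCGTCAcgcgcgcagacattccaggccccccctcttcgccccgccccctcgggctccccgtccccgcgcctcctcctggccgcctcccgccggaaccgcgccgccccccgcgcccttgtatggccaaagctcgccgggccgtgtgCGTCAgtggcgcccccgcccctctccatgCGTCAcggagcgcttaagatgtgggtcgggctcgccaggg
Homer1, chr13:93303507-93303756, plus strand: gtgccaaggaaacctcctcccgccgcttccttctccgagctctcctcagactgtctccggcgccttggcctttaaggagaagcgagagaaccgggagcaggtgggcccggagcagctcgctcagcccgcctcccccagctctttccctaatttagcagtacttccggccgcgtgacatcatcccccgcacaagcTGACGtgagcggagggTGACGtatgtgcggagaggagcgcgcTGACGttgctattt
Egr2, chr10:67537793-67537822, plus strand: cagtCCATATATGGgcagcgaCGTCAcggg
In Fos the capitals mark CRE cores 129 and 66 bases upstream of the start and TATAAA 33 bases upstream. Nr4a1 held 4 cores on the opposite strand, 233, 213, 69 and 40 bases upstream, and Homer1 held 3, at 56, 40 and 14 bases. For Egr2 only a 30-base site is shown, with a CArG box 72 bases and a CRE core 55 bases upstream of the start of its RefSeq entry 3. No promoter entry was used for Egr1 or Arc, so the counts that follow cover the other 8 members only. Each of those 8 held a CRE core in the 250 bases upstream of at least 1 start. The core was in 10 of their 13 entries (Egr2 entries overlap each other), and in 17.8% of 32851 promoters of the same length. None of the 13 entries held the full CRE or the AP-1 element, which were in 1.55% and 4.46% of all promoters. TATAAA and a CArG box were in 12.4% and 1.47% of all promoters. These matches describe letters in a window and say nothing of binding.

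Signals are the deposited linear intensities after quantile normalisation within a tissue, in arbitrary units, and differences are log2 values with their standard error (SE) from limma. A difference was called when limma's Benjamini-Hochberg adjusted p was under 0.05, over the 27022 probe sets tested in a tissue. With 3 arrays against 3, the median 95% half-width of a difference was 0.345 log2 units in brain, 0.690 in liver, 0.461 in kidney and 0.536 in heart. Mean deposited signal per array ran from 140.5 to 279 in brain, 84.6 to 172 in liver, 132 to 262 in kidney and 108 to 138 at 6 months and 149 to 279 at 14 months in heart, where the durations did not overlap. Each call of a member within a tissue was refitted with every array of that tissue left out in turn, and a call lost without an array is one that did not pass in that refit. The defining markers of each labelled tissue passed the filter on low signal there: 5 of 5 neuron markers in brain, 4 of 4 hepatocyte markers in liver, 4 of 4 tubule markers in kidney and 4 of 4 cardiomyocyte markers in heart. Arrays 2 and 3 of liver on Q10 at 14 months and array 2 of kidney on Q10 at 14 months stood apart from their tissue, and results that rest on them are also given without them.

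In brain, the 9 members other than Homer1 differed widely between mice of the same group. Fos, the AP-1 subunit used most as a mark of recent neuronal activity, gave signals of 1227, 1539 and 2088 in the 3 control brains at 6 months, 2221, 1787 and 956 on Q10 and 336, 746 and 1735 on QH2. The lowest and the highest QH2 brain thus lay on either side of most control brains, and the 3 groups overlapped. At 14 months Fos was 1245, 1391 and 1309.5 on control diet, 838, 575 and 899 on Q10 and 1695, 927 and 1667 on QH2. The 3 Q10 brains lay below every control brain, and the QH2 brains spanned the control range. Over 18 brains Fos ran from 336 to 2221, a 6.60-fold range, and its SD within groups of 0.62 log2 units was at the 95.8th percentile of all tested probe sets, whose median was 0.20.

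Fosb, whose product and its stable splice form pair with Jun proteins, gave 106, 133 and 125 on control diet, 78.4, 60.1 and 81.9 on Q10 and 78.9, 42.2 and 83.3 on QH2 at 14 months. Both supplemented groups lay below the control brains. Junb, a Jun family partner of Fos, gave 199.6, 266 and 301 on control diet, 172, 140.0 and 167 on Q10 and 329.6, 158 and 358 on QH2. Only the Q10 brains were separate from the controls. At 6 months Fosb and Junb overlapped between all diets, with the 2 extremes on QH2 for Fosb (44.2 and 183).

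Egr1, which activates plasticity genes and is high in resting cortex, gave 3947, 5169 and 3735 on control diet at 6 months, 3913, 2766 and 3947 on Q10 and 2489, 2867 and 5081 on QH2. At 14 months it gave 3239.8, 3759 and 3603 on control diet, 2737, 2075 and 2519 on Q10 and 2618, 1748 and 2631 on QH2. All 6 supplemented brains at 14 months lay below the 3 controls. Egr2, a related factor that also drives myelination in peripheral nerve, gave 189, 193 and 238 on control diet, 135, 68.2 and 82.3 on Q10 and 216, 75.3 and 207 on QH2 at 14 months. The Q10 brains lay below the control brains, while QH2 overlapped both. Egr2 had the widest spread within groups of the 10 genes, an SD of 0.78 log2 units.

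Nr4a1, a nuclear receptor without a classical ligand, gave 757, 1118 and 1111 on control diet at 14 months, 736, 461 and 759 on Q10 and 1139, 368 and 1019 on QH2. Its control and Q10 brains overlapped by a narrow margin. Arc, which acts at synapses in AMPA receptor endocytosis, gave 860.5, 1617 and 1298 on control diet at 6 months, 1605, 755 and 608 on Q10 and 313, 689 and 1605 on QH2. At 14 months it gave 782, 897 and 816 on control diet, 522, 282 and 537 on Q10 and 813, 323 and 717 on QH2. The same QH2 brain, array 2, held the lowest Arc and Nr4a1 of its group.

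Klf2 and Klf4, which in endothelium set anti-thrombotic and anti-inflammatory genes, ran from 57.2 to 185 and from 43.3 to 166 over the 18 brains. Klf4 gave 135, 138 and 131 on control diet at 14 months and 106, 112 and 105 on Q10, which did not overlap. At 6 months Klf2 gave 130.1, 113 and 185 on control diet and 57.2, 64.1 and 108 on QH2, again without overlap. Homer1 is a scaffold that links glutamate receptors to calcium stores, and its short form is activity-induced. Its brightest probe set differed by duration and hardly within a group, with an SD of 0.12 log2 units at the 22.6th percentile. Its probe sets 1436387_at and 1425671_at varied more within groups, with SDs of 0.52 and 0.61 (93.2nd and 95.6th percentiles). Probe sets 1421768_a_at, 1425710_a_at and 1439662_at had SDs of 0.22, 0.15 and 0.12.

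**Figure D1:**
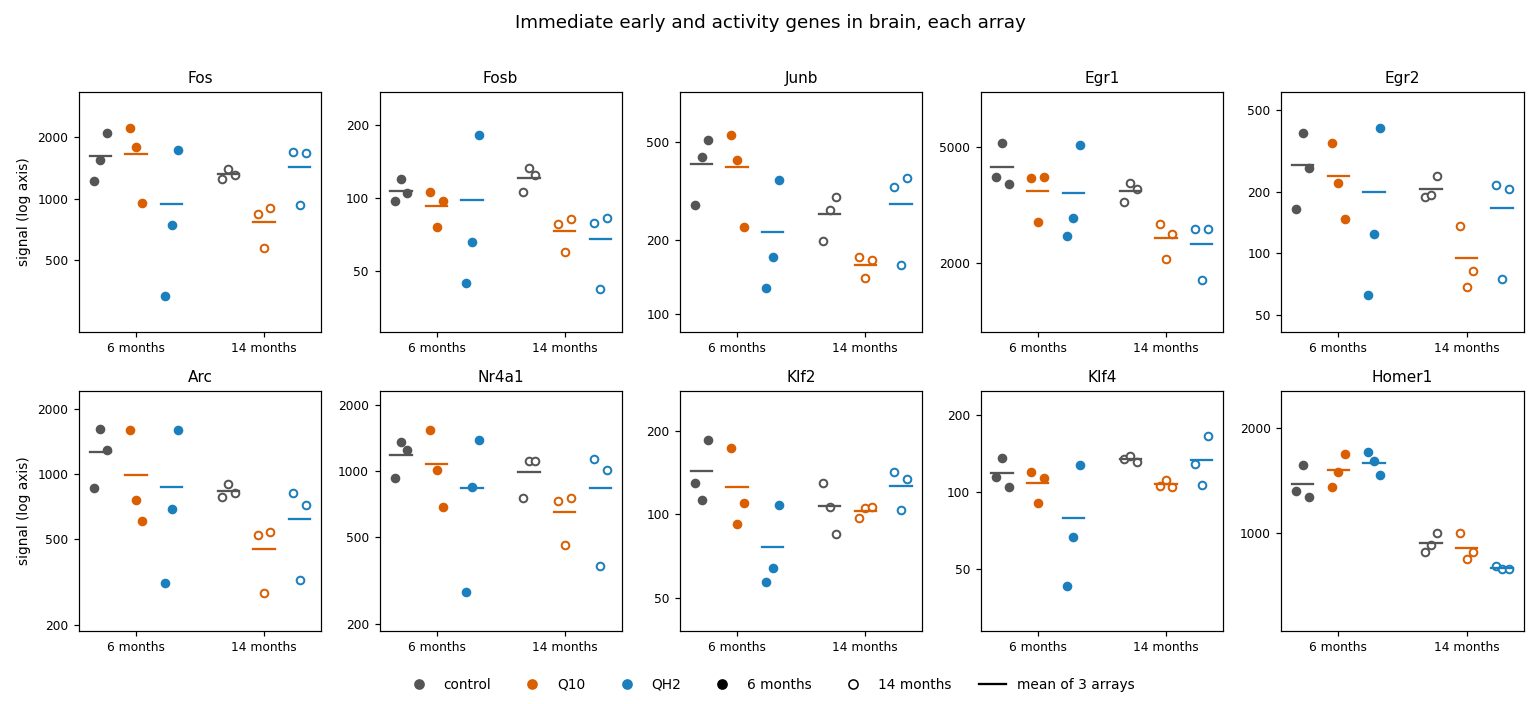
Normalised signal (log axis) of each of the 10 genes in the 18 brain arrays, by duration (filled points 6 months, open points 14 months) and diet (colour), with a line at the mean of the 3 arrays of a group. QH2 brains at 6 months spread widest for most genes, Q10 brains at 14 months lie below the controls for 7 of the 10, and Homer1 separates the durations.

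No diet comparison in brain called any of the 10 genes by its brightest probe set. In limma, 0 of the 10 passed in any of the 9 diet comparisons, where 0% of all tested probe sets passed in 8 comparisons and 0.0111% in QH2 against control at 14 months. At an unadjusted p under 0.05 the members numbered 5 for QH2 against control at 6 months, 0 for Q10 against control and 4 for QH2 against Q10. At 14 months they numbered 3, 3 and 1 in the same order, and over both durations 2, 2 and 0.

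The uncalled differences are given side by side, since the comparisons share control or supplemented arrays. On Q10 against control at 14 months, 0 of 10 members had a positive log2 difference and their median was -0.64, beside -0.01 over all tested probe sets. In that comparison 7 of the 10 (Fos, Fosb, Junb, Egr1, Egr2, Arc and Klf4) had all 3 Q10 brains below all 3 controls, which held for 6.51% of all tested probe sets. The 7 genes share the 6 arrays and move together between mice, so they are not 7 separate observations. The differences were -1.16 for Egr2 (SE 0.51, 95% interval -2.24 to -0.09), -0.95 for Arc (SE 0.46) and -0.79 for Fos (SE 0.41). Egr1 differed by -0.54 (SE 0.21, adjusted p = 0.864). An exact permutation test of 3 arrays against 3 cannot give a two-sided p under 0.1 here.

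On QH2 against control at 6 months 1 of 10 members were positive and the median was -0.77, beside 0.00 over all probe sets. Klf2 alone did not overlap, at -0.92 (SE 0.25, adjusted p = 0.310), in a comparison where 6.04% of probe sets lay wholly lower. At 14 months the same diet gave a median of -0.31 with 3 of 10 positive, and Fosb, Egr1 and the brightest Homer1 probe set lay wholly below the controls, beside 6.99% of probe sets. Set against each other at the same dose and duration, the oxidised and reduced forms also gave no call in brain. QH2 minus Q10 had a median of -0.57 at 6 months and 0.29 at 14 months, where Fos was 0.86 higher on QH2 (95% interval 0.01 to 1.72) without overlap. In the same comparison the brightest Homer1 probe set lay wholly lower on QH2 (-0.19), and 6.2% and 5.97% of all probe sets lay wholly higher and lower. The lists of other immediate early genes, of upstream regulators, of Homer1 partners and of KLF target genes had 0 called genes in each brain diet comparison.

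The members varied together between brains of the same group. After subtracting group means, all 36 pairs of the 9 members without Homer1 correlated positively over the 18 brains, with a median Pearson r of 0.82 and a range of 0.49 to 0.95. Among all 365080731 pairs of tested probe sets in brain, 5.34% reached 0.49, 0.0592% reached 0.82 and 49.9% were positive. Of the 36 pairs, 21 passed an adjusted permutation p of 0.05 (100000 permutations of arrays within groups, Benjamini-Hochberg over the 45 member pairs). The points of a pair share the same RNA and the same array.

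Arc and Nr4a1 gave r = 0.95 and Spearman's rho = 0.94 (permutation p = 1e-05, the smallest these permutations can give, adjusted p = 0.000450), and r = 0.92 without the 2 brains farthest from the median. Fos and Arc gave r = 0.93, and 0.86 without such brains, while Egr2 and Arc gave 0.95 and Fosb and Egr1 0.94. Fos and Egr1 were less alike, with r = 0.65 (rho = 0.50, adjusted permutation p = 0.123). That value fell to 0.30 without the 2 brains farthest from the median, so the r over all 18 brains depends on them. Their r was 0.57 over the 9 brains at 6 months and 0.96 over the 9 at 14 months. Klf2 had the lowest coefficients of the 9 genes, from 0.49 with Egr1 to 0.68 with Fos. Homer1, by its brightest probe set, stood outside over the 18 brains. Of its 9 pairs 1 was positive, their median was -0.24, and with Klf2 it gave r = -0.72 (rho = -0.70, adjusted permutation p = 0.0240). The median of these 9 pairs was -0.51 over the 9 brains at 6 months and 0.39 over the 9 at 14 months, so its sign differed by duration. With the arrays of 1 duration only, 0 of all 45 pairs passed at 6 months and 4 at 14 months, and on deposited values 38 did, against 22 here. Within 1 duration only 3 groups of 3 arrays are permuted, which limits how small p can get. The counts of 0 and 4 therefore cannot tell weaker relations from fewer arrays. Without the 2 farthest brains the lowest r of the 36 pairs was 0.16 (Fos and Klf4, 0.73 with all brains). The median r of the 36 pairs was 0.81 in the 9 brains at 6 months and 0.87 in the 9 at 14 months.

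A few brains carried much of this spread. All 9 genes lay below their group mean in QH2 array 1 at 6 months, by a median of 0.86 log2 units, and above it in QH2 array 3, by 1.00. All 9 were above the mean in Q10 array 1 at 6 months (by 0.52) and QH2 array 3 at 14 months (by 0.33). All 9 were below it in control array 1 at 6 months (by 0.33) and QH2 array 2 at 14 months (by 0.62). The control brains at 14 months stayed within 0.12 of their mean by that measure. The 3' to 5' ratios of Actb and Gapdh, mean deposited signal and the mean log2 signal of each marker list were set against Fos, Egr1 and Arc. The lists were those of brain regions and cell types. Of these 45 relations 0 passed (closest: Fos and the striatum markers, r = -0.80, adjusted permutation p = 0.156).

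**Figure D2:**
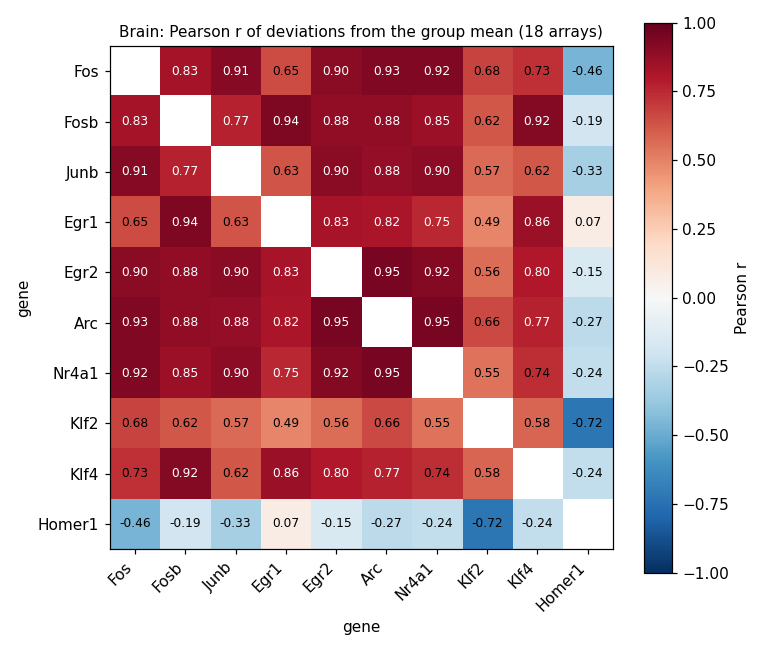
Pearson r between the 10 genes over 18 brain arrays, each gene's log2 signal taken as a deviation from its group mean, with colour and printed value giving r from -1 to 1. The 36 pairs without Homer1 run from 0.49 to 0.95, and 8 of the 9 Homer1 pairs are negative.

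The genes most like Fos, Egr1 and Arc in brain outside the 10 members were named by the 6 highest r over the same 18 deviations, each gene by its most alike tested probe set. For Fos they were Dusp1, a phosphatase that switches off MAP kinases and an immediate early gene itself (0.95), Rftn2 (0.92), Tob2 (0.92), Xbp1 (0.90), Apba3 (0.90) and Nr4a2 (0.90). For Egr1 they were the AP-1 subunit Fosl2 (0.95), Nr4a3 (0.92), Bri3 (0.92), Bmpr1b (0.92), the heat shock co-chaperone Dnajb1 (0.90) and the clock gene Per1 (0.89). For Arc they were Exosc4 (0.92), Fzr1 (0.92), Tob2 (0.89), Cttnbp2nl (0.89), Gadd45b (0.88) and Mnt (0.87). Of 43 other immediate early genes tested in brain, 26 correlated with Fos above 0.5 (60.5%, beside 8.38% of 12605 genes), 21 with Egr1 (48.8%, beside 5.83%) and 25 with Arc (58.1%, beside 6.99%).

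Between 6 and 14 months, markers of brain regions shifted in the same brains as the members. The summed signal of 6 cerebellum markers was 2028 to 2874 over the 9 brains at 6 months and 11568 to 13640.2 over the 9 at 14 months, and limma called all 6 higher, Gabra6 by 7.80 and Cbln1 by 4.02. The sum of the forebrain excitatory neuron markers was 3426 to 5061 at 6 months and 2029 to 2761 at 14 months, with 3 of 4 tested called lower (Nrgn, Slc17a7 and Tbr1). Oligodendrocyte markers (3 of 3), choroid plexus (4 of 4), astrocyte (3 of 4), hypothalamus (3 of 4) and endothelium (2 of 5) were called higher, and the sum of 5 general neuron markers was 21656 to 24864 at 6 months and 20823 to 21725 at 14 months. The part of these shifts in any member's difference was not tested. In bulk tissue, fewer cells of a type and less RNA per cell cannot be told apart. The labels say only brain, so duration of diet, age, the piece of brain taken and the handling of arrays cannot be told apart either.

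Over all diets, 3 members were called lower at 14 months and 1 higher, in a comparison where 56.2% of probe sets were called. Homer1 fell by 0.76 log2 units (SE 0.0529, adjusted p = 1.12e-09), from 1327, 1576 and 1268 to 888, 926 and 1004 on control diet. On Q10 its signals were 1357, 1504 and 1693 at 6 months and 1004, 845 and 883 at 14 months, and on QH2 1707, 1614 and 1466 and 807, 791 and 793. All 9 brains at 14 months lay below all 9 at 6 months. Egr1 fell by 0.44 (SE 0.12, adjusted p = 0.00487), a call kept without any single brain but not on the deposited values without normalisation, where the difference was 0.0550. Arc fell by 0.64 (SE 0.27, adjusted p = 0.0474) and Klf4 rose by 0.35 (SE 0.15, adjusted p = 0.0466). The Actb 3' to 5' ratio was 1.75 to 1.95 over the 9 brains at 6 months and 1.66 to 1.79 over the 9 at 14 months. With it as a covariate Homer1 was still called, while Egr1 (-0.46, adjusted p = 0.0814), Arc (-0.89, adjusted p = 0.114) and Klf4 (0.20, adjusted p = 0.532) were not, nor was Klf4 within QH2 (0.73, adjusted p = 0.0861). Leaving out 1 array at a time lost the Arc call in 10 of 18 refits (adjusted p up to 0.111) and the Klf4 call in 14 (adjusted p up to 0.101).

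Within a diet, the control mice gave 1 call of 10, Homer1 at -0.56 (SE 0.0917, adjusted p = 0.000157), where 32.8% of probe sets were called. On Q10, where the share was 28.6%, Homer1 (-0.73) and Junb were called, and Junb fell from 535, 425 and 227 to 172, 140.0 and 167, by 1.22 (SE 0.35, adjusted p = 0.0142). The Junb call was lost without Q10 array 1 or 2 at 6 months or Q10 array 2 at 14 months (highest adjusted p = 0.0737). On Q10, 6 of the 10 genes lay wholly lower at 14 months, as did 21.8% of probe sets. On QH2, where 34.9% were called, Homer1 fell by 1.00, Klf2 rose by 0.77 (adjusted p = 0.0214) and Klf4 rose by 0.87 (adjusted p = 0.0119). Klf2 had run at 57.2, 64.1 and 108 at 6 months and reached 142, 104 and 135 at 14 months, and Klf4 went from 43.3, 67.1 and 128 to 129, 107 and 166, and both overlapped between durations. The Klf2 call was lost without QH2 array 1 or 2 at 6 months or QH2 array 1 or 3 at 14 months (highest adjusted p = 0.106). The Klf4 call was lost without QH2 array 1 at 6 months or QH2 array 3 at 14 months (highest adjusted p = 0.0855).

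Over the same interval 28.6% of probe sets were called higher and 27.7% lower in brain, and shares of a list near these say nothing particular to it. Of 43 other immediate early genes, 12 were called higher and 12 lower, a median of -0.02 beside 0.01 over all probe sets, among them Dusp5 (1.72) and Ier3 (0.63) higher and the G protein regulator Rgs4 (-0.78), the secreted peptide precursor Vgf (-0.57) and Plk2 (-0.49) lower. Of 17 upstream regulators, 9 were called lower and 2 higher, with Srf at -0.51, its partner Elk1 at -0.78, Mef2c at -0.59 and the CREB coactivator Crtc1 at -0.52. Homer1's partners gave 6 lower and 1 higher of 9: the glutamate receptor Grm5 (-0.70), the postsynaptic scaffolds Dlg4 (-0.58) and Shank3 (-0.32), Homer2 (-0.45) and the calcium channel Ryr1 (-0.89) were lower, and Homer3, abundant in cerebellum, was higher (1.86). KLF target genes gave 5 higher and 0 lower of 7, including Edn1 (0.69), Cdkn1a (0.64), Vcam1 (0.53) and Thbd (0.36). The list does not say which of them KLF factors raise and which they lower, so these directions give no reading of KLF activity.

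The 6 Homer1 probe sets did not behave alike in brain, and the annotation used does not say which transcript each detects. Probe set 1436387_at gave 1289.5, 1587 and 1396 on control diet at 14 months, 1426, 878 and 1184 on Q10 and 267, 249 and 486 on QH2. The QH2 brains lay below all others, a difference from control of -2.15 (SE 0.34, adjusted p = 0.0420), and this probe set was 1 of only 3 called in that comparison. The call was lost in 12 of 18 refits that each left out 1 array (adjusted p from 0.00552 to 0.322), and with the Actb ratio as a covariate (adjusted p = 0.165). At 6 months the same probe set gave 1362, 1289 and 486 on control diet, 887, 511 and 1207 on Q10 and 1649, 1562 and 2238 on QH2, where QH2 lay highest. The QH2 difference from control thus differed between durations by -3.07 (SE 0.48, adjusted p = 0.0281), where 0.0296% of probe sets were called. That call was lost without QH2 array 2 at 6 months, control array 1 or 2 at 14 months or QH2 array 1 or 2 at 14 months (highest adjusted p = 0.0997), and with the same covariate (adjusted p = 0.0713).

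Homer1 probe set 1425671_at, with low signals, gave 53.1, 67.6 and 108 on QH2 at 6 months and 16.5, 5.04 and 18.9 at 14 months, a fall of 2.53 (SE 0.44, adjusted p = 0.000229). Against control at 14 months it differed by -1.66 (SE 0.44, adjusted p = 0.591), which was not called. The other 4 probe sets differed from control on QH2 at 14 months by -0.69 to -0.23 and none was called. On control diet, Q10 and QH2 respectively, 14 against 6 months was -0.96, -1.08 and -1.96 for 1421768_a_at. It was -0.85, -0.91 and -1.25 for 1425710_a_at. Probe set 1439662_at gave -0.56, -0.67 and -0.88. On the deposited values without normalisation, 1436387_at turned from -0.48 to 0.0403 for 14 against 6 months over all diets.

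**Figure D3:**
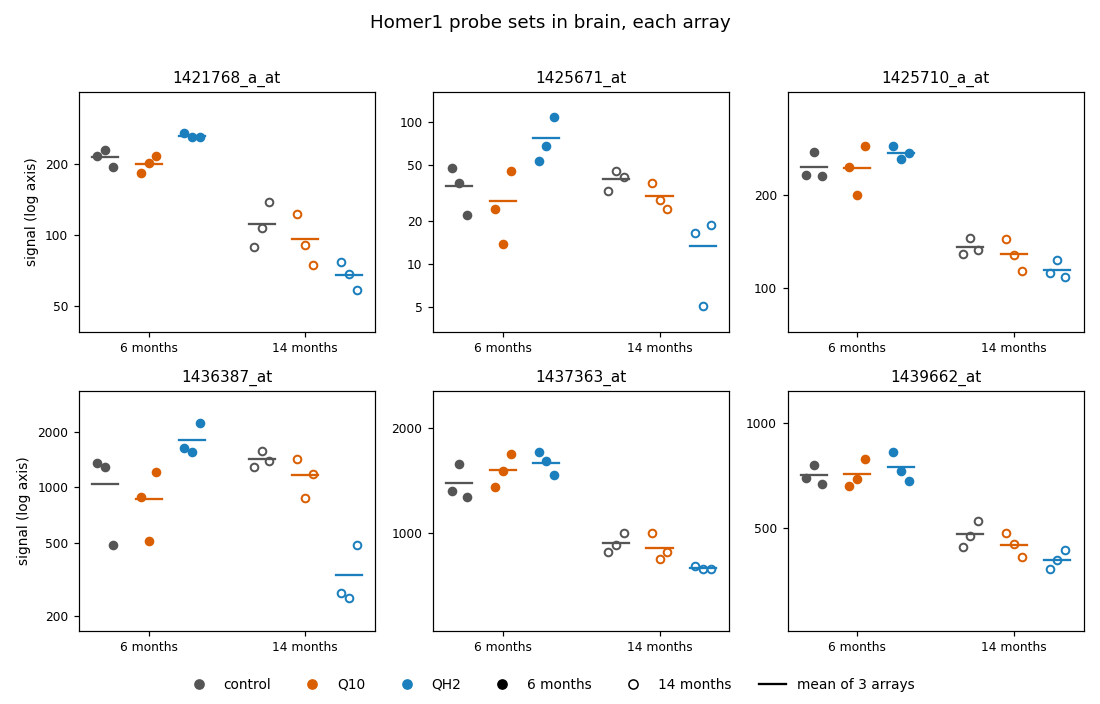
Normalised signal (log axis) of the 6 Homer1 probe sets in the 18 brain arrays, by duration (filled 6 months, open 14 months) and diet (colour), with a line at the mean of 3 arrays. For 1436387_at the 3 QH2 brains at 14 months (249 to 486) lie below all other brains at that age, while 1437363_at separates the durations on every diet.

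In liver, 8 of the 10 genes passed the filter on low signal (Egr2 and Arc did not). At 14 months on Q10, Klf2, Klf4 and Nr4a1 were called higher than on control diet, 3 of 8, where 6.19% of probe sets were called and 3.88% called higher. Klf2 gave 41.8, 30.8 and 25.6 on control diet, 58.2, 177 and 159 on Q10 and 32.0, 58.7 and 36.3 on QH2, a 3.60-fold rise on Q10, 1.85 (SE 0.36, adjusted p = 0.00483) in log2. All 3 Q10 livers exceeded the controls, and arrays 2 and 3 stood highest. Klf4 gave 19.8, 17.1 and 17.7 on control diet, 50.2, 41.1 and 46.7 on Q10 and 24.6, 33.4 and 30.3 on QH2, a rise on Q10 of 1.29 (SE 0.36, adjusted p = 0.0390). Nr4a1 gave 14.6, 21.4 and 19.2 on control diet, 32.1, 46.4 and 43.9 on Q10 and 28.2, 30.2 and 23.4 on QH2, a rise on Q10 of 1.11 (SE 0.29, adjusted p = 0.0316). The Q10 livers of both genes lay above all control and QH2 livers. The Klf2 call was kept without any single array. The Klf4 call was lost in 7 of 18 refits that each left out 1 array (adjusted p from 0.0146 to 0.125), and the Nr4a1 call was lost without any control array at 14 months or Q10 array 2 or 3 at 14 months (highest adjusted p = 0.162).

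Egr1 gave 142, 336 and 314 on control diet at 14 months, 2216, 631 and 482 on Q10 and 192, 122 and 135 on QH2, with array 1 of Q10 far above the rest. The Q10 difference from control was 1.82 (SE 0.63, adjusted p = 0.0930) and was not called. Junb gave 70.5, 68.3 and 76.5 on control diet, 141, 121 and 102 on Q10 and 62.4, 43.8 and 68.4 on QH2, and its Q10 difference of 0.74 (SE 0.31, adjusted p = 0.166) was not called either. For both genes the Q10 livers lay above all control livers. Over the 8 members the Q10 median was 1.20 with 7 of 8 positive, beside -0.10 over all probe sets, and 5 of 8 lay wholly higher, beside 10.2% of probe sets.

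In liver at 14 months the oxidised and reduced forms, fed at the same dose, differed in 3 of 8 members, where 9.79% of probe sets were called and 4.96% called lower. Egr1 was lower on QH2 than on Q10 by 2.57 (SE 0.63, adjusted p = 0.0166), Junb by 1.06 (SE 0.31, adjusted p = 0.0362) and Klf2 by 1.51 (SE 0.36, adjusted p = 0.0136). The Klf2 groups overlapped. The Egr1 call was lost without QH2 array 2 or 3 at 14 months (highest adjusted p = 0.0639). The Junb call was lost without any Q10 array at 14 months or any QH2 array at 14 months (highest adjusted p = 0.135). The Klf2 call was lost without Q10 array 2 or 3 at 14 months or QH2 array 1 or 3 at 14 months (highest adjusted p = 0.0883). QH2 against control at 14 months called 0 members in limma, with 0 at an unadjusted p under 0.05, in a comparison with 0% called. At 6 months no member was called in any diet comparison (unadjusted p under 0.05: 0 for Q10 and 1 for QH2 against control, 0 between the 2 forms), where 0.81%, 0% and 0.988% of probe sets were called. Averaged over both durations the counts were also 0, with 5, 2 and 1 at an unadjusted p under 0.05 and 0.84%, 0% and 3.34% of probe sets called.

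Cell type markers and the Actb 3' to 5' ratio also differed between the groups compared in liver, and no relation of the members to them was computed array by array. The summed signal of macrophage markers was 458 to 1098 on control diet at 14 months, 2672 to 8660.4 on Q10 and 623 to 1102 on QH2, with 4 of 5 tested called higher on Q10. B cell markers gave 39.6 to 61.0, 173 to 2672 and 72.3 to 98.7 (3 of 3 called higher), and neutrophil markers 61.9 to 531, 231 to 11808 and 52.7 to 201 (4 of 4). Endothelium markers gave 201 to 241, 262 to 362 and 209 to 255, with Pecam1 (2.21) and Cdh5 (1.49) called of 5 tested, and T cell markers 19.3 to 24.6, 45.2 to 89.0 and 22.6 to 33.5 (1 of 2, with Cd8a not above the filter). The summed hepatocyte markers lay between 40925 and 48165 in all 18 livers, and the part of these markers in the members' differences was not tested. The 3' to 5' ratio of Actb, a measure of RNA integrity and labelling, was 3.49, 3.88 and 4.11 on control diet, 3.05, 1.59 and 1.98 on Q10 and 7.36, 3.67 and 5.01 on QH2. With that ratio as a covariate no diet call remained in liver, and Klf2 on Q10 gave 0.80 (adjusted p = 0.766). Without arrays 2 and 3 of that group no diet call remained either, and Klf2 gave 0.84, Klf4 1.42 and Nr4a1 0.79, with the remaining array taken to vary like the other groups.

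**Figure D4:**
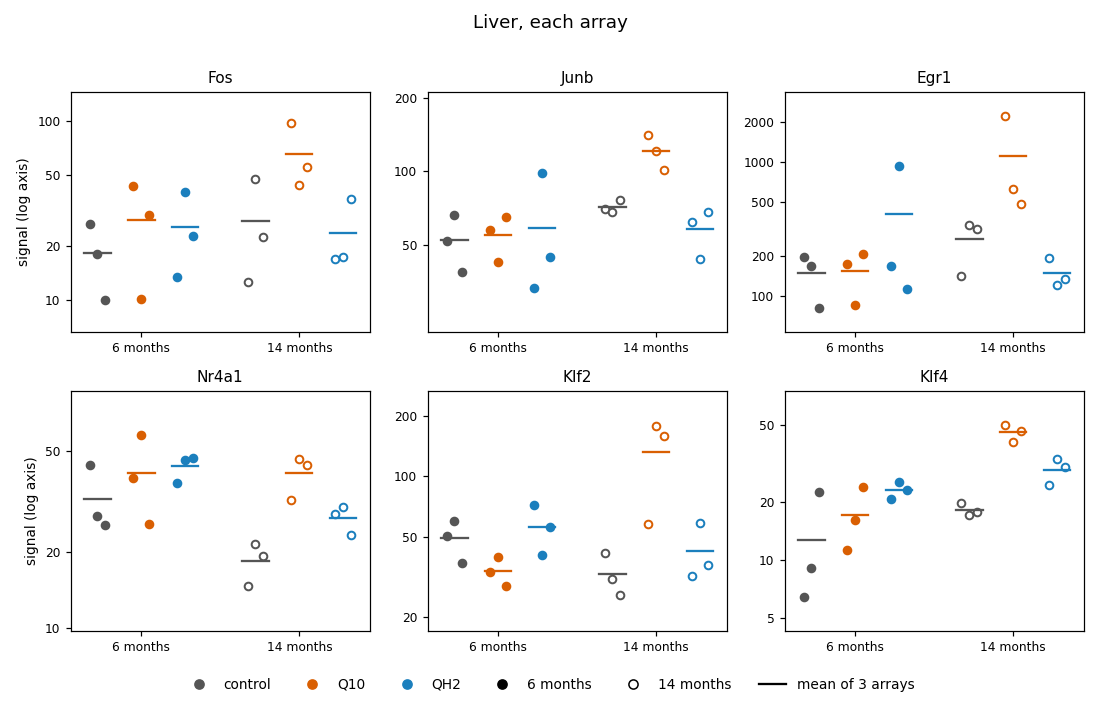
Normalised signal (log axis) of Fos, Junb, Egr1, Nr4a1, Klf2 and Klf4 in the 18 liver arrays, by duration (filled 6 months, open 14 months) and diet (colour), with a line at the mean of 3 arrays. The 3 Q10 livers at 14 months lie above the 3 control livers of that age for all genes but Fos.

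Between durations, 4 of 8 members rose in liver on Q10. Egr1 rose by 2.59 (SE 0.63, adjusted p = 0.0125) from 174, 85.4 and 204 at 6 months, Klf2 by 1.78 (adjusted p = 0.00400), Klf4 by 1.44 (adjusted p = 0.0142) and Junb by 1.14 (adjusted p = 0.0224). They compare with 12.4% of probe sets called and 5.91% called higher. In the same comparison all 3 tested B cell, 2 of 2 T cell, 4 of 4 neutrophil and 4 of 5 macrophage markers were called higher and 0 of 4 hepatocyte markers were called, and over all diets the 3 B cell markers were called higher (1.65 to 2.28). The Actb 3' to 5' ratio on Q10 was 3.34 ± 0.352 (SD, n = 3) at 6 months and 2.21 ± 0.754 (SD, n = 3) at 14 months. With it as a covariate Egr1 (3.72) and Junb (1.52) were still called, and Klf2 (0.98, adjusted p = 0.142) and Klf4 (1.40, adjusted p = 0.138) were not. The part of the immune markers in these calls was not tested. The Egr1 call was lost without Q10 array 2 at 6 months (highest adjusted p = 0.0593), the Klf4 call was lost without Q10 array 1 at 6 months (highest adjusted p = 0.0704) and the Junb call was lost without Q10 array 1 or 2 at 6 months or Q10 array 2 at 14 months (highest adjusted p = 0.0915). Without arrays 2 and 3 of Q10 at 14 months together, that group was array 1 alone, whose Egr1 signal of 2216 was the highest of all livers. The Egr1 difference was then 3.93 and rests on that 1 liver. On control diet and on QH2, 0 members were called (unadjusted p under 0.05: 1 and 1), where 7.36% and 2.34% of probe sets were. For Klf2 the Q10 effect differed between durations by 2.35 (SE 0.50, adjusted p = 0.0190), 1 of 8 members against 2.33% of probe sets. That call was lost without Q10 array 3 at 6 months, control array 2 at 14 months or Q10 array 2 or 3 at 14 months (highest adjusted p = 0.0604), and also without both arrays that stood apart (1.35, adjusted p = 0.349). Over all diets Junb rose by 0.58 (SE 0.18, adjusted p = 0.0278) and Klf4 by 0.81 (SE 0.21, adjusted p = 0.00942), where 20.7% of probe sets were called, and both were also called without the 2 arrays. The Junb call was lost in 7 of 18 refits that each left out 1 array (adjusted p from 0.00194 to 0.0593).

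In the comparison of Q10 with control in liver at 14 months, of 34 other immediate early genes, 4 were called higher and 0 lower, beside 3.88% of probe sets called higher, a median of 0.55: Myc (2.07), Rgs2 (1.81), the AP-1 subunit Jun (1.58) and the antiproliferative gene Btg2 (1.42). On QH2 against Q10, 8 were called lower and 0 higher, beside 4.96% called lower, with Rgs2 at -1.86, Btg2 at -1.21, Klf6 at -1.20 and Mcl1 at -1.02. Of 7 KLF target genes, the adhesion molecule Vcam1 was called higher on Q10 (2.28). This list does not say whether KLF factors raise or lower each gene. Without arrays 2 and 3 of Q10 at 14 months limma called 0 genes of either list (unadjusted p under 0.05: 6 of 34 and 1 of 7 on Q10 against control, 3 and 0 on QH2 against Q10), where 0.0518% and 0.0407% of probe sets were called. Myc then gave 1.40, Rgs2 1.24, Jun 0.92, Btg2 0.85 and Vcam1 0.75 on Q10 against control. The macrophage, B cell and neutrophil markers given above were called higher in the same Q10 livers, and their part in the list's calls was not tested. Over the 18 livers the members did not move together as in brain: the median r over 28 pairs was -0.13 and 0 pairs passed.

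In kidney 8 of the 10 genes passed the filter (Fosb and Arc did not), and 0 were called in any of the 9 diet comparisons in limma. At an unadjusted p under 0.05 there were 2 for QH2 against Q10 at 14 months, 1 for QH2 against control at 14 months and 0 in the other 7. The shares of probe sets called were 6.05% and 0% in those 2 comparisons, 0.67% for Q10 against control at 14 months, 0.192%, 0% and 0.292% for QH2 against control, Q10 against control and QH2 against Q10 at 6 months, and 0%, 0.0259% and 0.215% for the same over both durations. Single mice held the extremes. Fos gave 28.5, 24.1 and 251 on control diet at 6 months, 23.8, 128 and 41.8 on Q10 and 57.4, 39.4 and 25.2 on QH2. Egr1 gave 146, 129 and 890.2 on control diet, 208, 818 and 152 on Q10 and 304, 178 and 113 on QH2, with the same 2 kidneys, control array 3 and Q10 array 2, far above the rest. Over 18 kidneys Fos and Egr1 had r = 0.90 (rho = 0.79, permutation p = 0.0138, adjusted p = 0.138 over 28 pairs), and 0.75 without 2 kidneys, while the median over the pairs was 0.078.

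Over all diets, 5 of 8 members were called between durations in kidney, beside 40.8% of probe sets. Junb rose by 0.69 (adjusted p = 0.00628), Klf2 by 0.39 (adjusted p = 0.00264), Klf4 by 0.35 (adjusted p = 0.0312) and Egr2 by 1.41 (adjusted p = 0.0486), and Nr4a1 fell by 0.96 (adjusted p = 0.0175). Leaving out 1 array at a time lost the Klf4 call in 9 of 18 refits (adjusted p up to 0.0670) and the Egr2 call in 13 (adjusted p up to 0.111). Without the Q10 array that stood apart, Egr2 gave 1.13 (adjusted p = 0.111). Nr4a1 on control diet was 90.8, 52.3 and 259.7 at 6 months and 21.1, 23.7 and 36.8 at 14 months, a fall of 1.98 (adjusted p = 0.0266) without overlap, 1 of 8 members against 9.36% of probe sets. That call was lost without control array 1 or 3 at 6 months or control array 1 or 2 at 14 months (highest adjusted p = 0.143). On Q10 Junb (1.27), Klf2 (0.75) and Klf4 (0.71) rose, 3 of 8 beside 28.2% of probe sets, and the Klf4 call was lost without Q10 array 1 at 6 months or Q10 array 1 or 3 at 14 months (highest adjusted p = 0.0771). Klf2 went from 105, 93.9 and 114 to 179, 195 and 155 there, without overlap. On QH2 0 members were called, with 0 at an unadjusted p under 0.05, beside 10.2% of probe sets. All 3 tested B cell markers were called higher at 14 months in kidney, Ms4a1 by 3.33, and their part in the members' changes was not tested. Of 37 other immediate early genes 8 were called higher and 2 lower, among them Gadd45b (1.11), Myc (0.91) and Klf6 (0.51).

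In heart all 10 genes passed the filter and 0 were called in any diet comparison, where 0% of probe sets were called in 8 comparisons and 0.0666% in QH2 against Q10 at 6 months. At an unadjusted p under 0.05 the largest counts were 4 for QH2 against Q10 at 6 months, 4 for Q10 against control over both durations and 4 for QH2 against Q10 over both. Fos gave 75.5, 116 and 126 on control diet at 6 months, 255, 422 and 218 on Q10 and 71.9, 41.7 and 159 on QH2. The Q10 hearts lay above all others, by 1.46 (SE 0.58, adjusted p = 0.821) against control, and QH2 minus Q10 was -1.86 (SE 0.58, adjusted p = 0.422). At 6 months Nr4a1 gave 447, 612 and 523 on control diet, 596, 674 and 805 on Q10 and 129, 164 and 549 on QH2. Klf2 gave 592, 511 and 605 on control diet, 579.5, 600.2 and 596 on Q10 and 402, 337 and 559.7 on QH2. On QH2 against Q10 at 6 months Fos, Junb, Nr4a1 and Klf2 lay wholly lower, 4 of 10 beside 6.41% of probe sets. At 14 months Egr1 was 245, 268 and 160.3 on control diet and 456, 937 and 502 on Q10, a difference of 1.45 (SE 0.45, adjusted p = 0.247) without overlap.

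Between durations in heart, Junb rose by 0.50 (SE 0.15, adjusted p = 0.0234) and Nr4a1 fell by 0.93 (SE 0.28, adjusted p = 0.0241) over all diets, 2 of 10 beside 18.8% of probe sets. Nr4a1 at 14 months was 390.3, 249.7 and 214 on control diet, 297, 353 and 185 on Q10 and 343, 193 and 61.1 on QH2, below 6 months without overlap on control diet and on Q10. The Junb call was lost without Q10 array 3 at 6 months, QH2 array 2 at 6 months or Q10 array 2 at 14 months (highest adjusted p = 0.0562), and the Nr4a1 call was lost without Q10 array 3 at 14 months (highest adjusted p = 0.0522). Neither call passed without the intensity trend in the variance (adjusted p = 0.0527 for Junb and 0.0738 for Nr4a1). On deposited values, whose array means did not overlap between durations in heart, Junb gave 1.36 and Nr4a1 -0.10, and the duration calls of members in heart numbered 20 instead of 2. Within single diets 0 of the 10 genes were called by the brightest probe set, with 0, 2 and 1 at an unadjusted p under 0.05 on control diet, Q10 and QH2, where 2.01%, 10.6% and 2.28% of probe sets were called. Other Homer1 probe sets were called in opposite directions. Over all diets 1421768_a_at was lower (-0.59 to -0.44 in 18 refits without 1 array, called in all 18), but it reversed on deposited values. On Q10 1436387_at was higher (0.76 to 1.27, called in 16 of 18 refits). KLF target genes gave 5 higher and 0 lower of 7 (Edn1 0.72, Cdkn1a 0.65, Ptgds 0.52, Thbd 0.48 and Vcam1 0.31), in a list without a stated direction of regulation. Across the 18 hearts the median r of 45 pairs was 0.27 and 0 passed (Fos and Nr4a1: r = 0.87, rho = 0.79, permutation p = 0.00557, adjusted p = 0.183, r = 0.74 without 2 hearts).

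After normalising all 72 arrays together, each member was compared between brain and each other tissue. All 30 comparisons were called, 4 of them against a tissue where the gene did not pass the filter (Arc in liver and kidney, Egr2 in liver and Fosb in kidney) and for which no size is given, where 85.6%, 81.8% and 86% of probe sets were called against liver, kidney and heart. On deposited values without normalisation 28 were called. Arc was higher in brain than in heart by 5.51, with median signals of 583 in brain, 2.26 in liver, 2.26 in kidney and 13.9 in heart. Fos was higher in brain by 4.32, 4.35 and 2.92 against liver, kidney and heart, and Egr1 by 3.12, 3.74 and 3.04. Egr2 was higher in brain than in kidney and heart by 3.53 and 2.92, and Fosb than in liver and heart by 2.23 and 2.20. For these 5 genes the median was highest in brain and lowest in liver or kidney, whose ranges overlap and were not tested against each other.

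Nr4a1 and Homer1 came nearest to their brain signal in heart: brain exceeded heart by 0.93 and 1.17, but liver by 3.46 and 3.48. For brain against heart the other tested Homer1 probe sets ran from 0.10 (1425710_a_at, adjusted p = 0.530, not called) to 3.01 (1436387_at). Junb was the most even of the group, with brain above liver, kidney and heart by 0.58, 1.22 and 0.71. Klf2 and Klf4 had the opposite order, with medians of 66.2 and 71.3 in brain and 576 and 481 in heart. Brain lay below heart by 2.94 and 2.70 log2 units. Klf2 was also lower in brain than in kidney (-0.85) and liver (-0.41), while Klf4 was lower than in kidney (-0.48) and higher than in liver (0.77). The other Klf4 probe set, 1417395_at, was called against kidney (-0.86) but not against liver (0.23, adjusted p = 0.279).

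Whether a diet or duration difference was itself different in brain was tested over the 72 arrays. For the QH2 difference from control, 0 of 10 members differed between brain and liver, kidney or heart in limma (unadjusted p under 0.05: 3, 1 and 0), where 0.0037%, 0% and 0.0074% of probe sets did. For Q10, Klf4 differed between brain and liver and 0 members between brain and kidney or heart (unadjusted p under 0.05: 6, 1 and 3), where 0.899%, 0.0037% and 0.0074% of probe sets did. For 14 against 6 months, 3 members differed between brain and liver (Junb, Egr1 and Homer1), 3 between brain and kidney (Junb, Egr2 and Homer1) and 2 between brain and heart (Junb and Homer1), each time lower in brain, where 34.2%, 32.4% and 18.4% of probe sets differed. The Klf4 call was lost in 9 of 72 refits without 1 array (adjusted p up to 0.0767) and without arrays 2 and 3 of liver on Q10 at 14 months (-1.28, adjusted p = 0.125), and its other probe set 1417395_at gave -0.46 (adjusted p = 0.738) where the brightest gave -1.22. The duration difference of Egr1 between brain and liver was lost without array 3 of liver on QH2 at 6 months or array 1 on Q10 at 14 months (highest adjusted p = 0.0521). The other 7 were kept in all 72 refits. The Egr2 difference between brain and kidney moved from -1.97 to -1.70 without the kidney array that stood apart, while its other probe set 1427682_a_at gave -0.97 (adjusted p = 0.346). Egr2 signals in kidney were near the floor, and 1427682_a_at did not pass the filter there. Homer1 probe set 1436387_at gave -0.25 against liver (adjusted p = 0.530) and -0.40 against kidney (adjusted p = 0.282), neither called, and -0.82 against heart, called. Homer1 probe sets 1421768_a_at, 1425710_a_at and 1439662_at were called lower in brain against each tissue. Junb gave -0.48 in brain against 0.58 in liver, 0.69 in kidney and 0.50 in heart, each within its own tissue. Within a tissue, the effect of a supplement differed between durations for 0 brightest probe sets of the 10 in brain (unadjusted p under 0.05: 3 for QH2 and 0 for Q10), 0 of 8 in kidney (1 and 1) and 0 of 10 in heart (0 and 0). The shares of probe sets called for QH2 and Q10 were 0.0296% and 0% in brain, 0% and 0.0074% in kidney and 0% and 0% in heart, and in liver, where Klf2 was called for Q10, 0% for QH2.

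**Figure D5:**
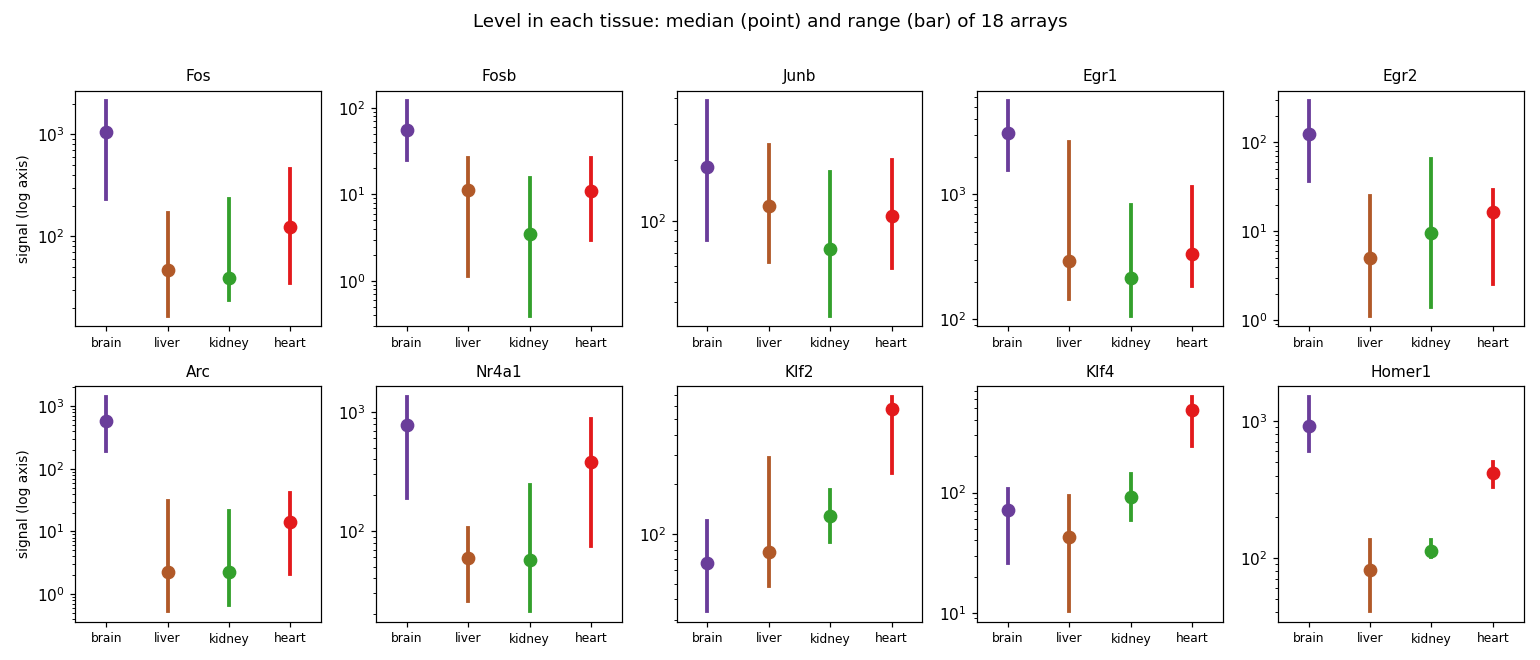
Median (point) and range (bar) of the signal of each gene over the 18 arrays of a tissue, on a log axis, after normalising all 72 arrays together. 8 of the 10 genes have their highest median in brain, and Klf2 and Klf4 theirs in heart.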

How the data were processed

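Values are probe set intensities that the authors deposited as a table of 72 arrays and 45101 probe sets, on a linear scale, made with GCOS per the submitters' processing notes. Its version, settings and scaling were not given in the sources used here, and array means differ, so no scaling between arrays was assumed. Intensities were quantile normalised within each tissue, 64 control probe sets were dropped, and log2(value + 1) was taken. Probe sets at or below the 40th percentile of mean signal were left out, which left 27022 a tissue. limma 3.58.1 in R 4.3.3 fitted 6 group means to the 18 arrays of a tissue, with a mean-variance trend, 15 contrasts and Benjamini-Hochberg adjustment. A second fit over 72 arrays compared tissues. Tests were checked on simulated data.

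Symbols came from the platform annotation, updated through RefSeq's GRCm38.p6 table: 34945 probe sets had 1 symbol, 932 several and 9160 none, and those with several or none were not named. Replicate numbers did not pair arrays within a tissue (median correlation of same-numbered deviations 0.00491 in brain, -0.00367 in liver, -0.0013 in kidney and -0.00653 in heart), so no block was used. No 2 arrays held identical values. The number of arrays limits the precision, and the intensities carry no counting depth. The members and the gene lists were chosen with earlier results of these data known. Genes named beyond the members were taken from up to 6 called genes with the smallest limma p in each list, and were the 6 most alike to Fos, Egr1 and Arc. Alternatives changed the normalisation, the offset of 1 to 16, the filter, the trend, array weights, an Actb 3' to 5' covariate, the groups fitted, the probe set rule, a replicate block and single arrays. Leaving out the arrays that stood apart, the correlation alternatives and the refits of differences of effects were chosen after seeing the data.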

Additional observations from a re-analysis of the deposited data

Results flagged for a closer look

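The following 11 differences of effects passed limma's adjusted p of 0.05 and are given as values. For Homer1 probe set 1436387_at in brain, the QH2 difference from control changed by -3.07 log2 units between 6 and 14 months. For Klf2 in liver, the Q10 difference from control changed by 2.35 between durations. The difference of 14 against 6 months for Junb was, as brain minus the other tissue, -1.06 for liver, -1.20 for kidney and -1.00 for heart. For Egr1 that difference in brain minus liver was -1.27, and for Egr2 in brain minus kidney it was -1.97 (-0.97 for its other probe set, not called), with kidney signals near the floor. For the brightest Homer1 probe set it was -0.60 in brain minus liver, -0.79 in brain minus kidney and -0.91 in brain minus heart. Homer1 probe set 1436387_at gave -0.25 and -0.40 for liver and kidney, not called, and -0.82 for heart, called. The shares of probe sets called in these tissue contrasts were 34.2% for liver, 32.4% for kidney and 18.4% for heart. The Q10 difference from control over both durations for Klf4 was -1.22 in brain minus liver (-0.46 for its other probe set, not called), where 0.899% of probe sets were called. The region markers in brain and the immune markers in liver given above also differed between these groups, and their part in these differences was not tested.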

How the results depend on the processing

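Of the 57 member probe set calls followed, each was refitted without each array of its tissue in turn, and 879 refits kept the call, 147 lost it and none reversed. Under the other settings 442 kept it, 92 lost it and 4 reversed. The reversals were Egr1 (0.0550) and Homer1 1436387_at (0.0403) in brain and Homer1 1421768_a_at (0.34) in heart, 14 against 6 months over all diets on deposited values, and Klf2 in liver, QH2 against Q10 at 14 months with the Actb covariate (0.0597). Leaving out 1 array gave 0 to 1 diet calls of members in brain (all arrays: 0), 2 to 9 for liver (6), 0 to 0 for kidney (0) and 0 to 1 for heart (0). Duration calls ranged from 7 to 14 for brain (10), 4 to 8 for liver (7), 6 to 9 for kidney (9) and 1 to 4 for heart (2). Tissue calls stayed at 30 to 30, and passing correlations ranged from 15 to 27 (all arrays: 22). On deposited values the counts were 6 for brain duration, 2 for heart diet, 20 for heart duration and 38 for correlations. In liver, diet calls numbered 3 without the trend, 0 with only the groups compared, 17 with array weights, 0 with the Actb covariate and 0 without both arrays that stood apart, and duration calls 3 with only the groups compared, 4 with the covariate and 4 without both arrays. In heart, duration calls numbered 0 without the trend, 5 with only the groups compared, 4 with weights and 4 with any probe set, and diet calls 1 with weights. Kidney diet calls numbered 1 with only the groups compared, and brain diet calls 1 with any probe set. Correlations passed in 0 pairs with 6-month arrays only and 4 with 14-month arrays only, where fewer arrays limit how small a permutation p can get. The cause of each change was not tested, except that fewer arrays entered where arrays were left out. With the replicate number as a block, brain had 0 diet and 9 duration calls, liver 6 and 7, kidney 0 and 8, heart 0 and 2, and tissues differed in 30. The replicate block changed no count by over 1.5 times.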
